A study of Mus musculus with 4 samples.

Results

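BAFF and APRIL are the survival factors of the B cell lineage, and 5 genes encode these ligands and their receptors: *Tnfsf13b* (BAFF), *Tnfsf13* (APRIL), *Tnfrsf13b* (TACI), *Tnfrsf13c* (BAFF-R), and *Tnfrsf17* (BCMA). They were taken by symbol from the 55401 genes measured in RNA of sorted dural CD45+ cells, CD45 being the surface protein of leukocytes. Wild-type male C57BL/6J mice had received 2 μl of an AAV9 vector into the cisterna magna at 4 wk of age. AAV-mVEGF-C expresses mouse VEGF-C, the lymphatic growth factor, and AAV-CTRL expresses a soluble piece of its receptor VEGFR-3 (mVEGFR3 4–7-Ig) that does not bind VEGF-C. Each group had 2 libraries, and each library was a pool of cells from 10–12 mice, so variation between single mice was not measured.

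BAFF and APRIL are made mainly by myeloid and stromal cells, as precursors that proteases cleave. BAFF-R binds only BAFF and carries the survival of mature B cells. TACI binds both ligands and is found on activated B cells, marginal zone B cells and plasma cells. BCMA binds APRIL more strongly than BAFF and comes up as B cells become plasma cells, whose long life in the bone marrow depends on it. The receptors recruit TRAF adaptors, through which BAFF-R releases the kinase NIK and thereby the noncanonical NF-κB pathway.

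Both ligand genes produce alternative transcripts that bear on how reads were assigned. *Tnfsf13* shares its 3′ exons with *Tnfsfm13*, a read-through gene that joins the upstream ligand TWEAK (*Tnfsf12*) to APRIL (TWE-PRIL), and the lines below show why a read in the shared part cannot be assigned to one of them. Lower case marks the 30 coding bases before the join, which come from different exons, and capitals mark the following 30 bases, identical in both (5′ to 3′, GENCODE M21 transcripts on GRCm38). In *Tnfsfm13* (transcript Tnfsfm13-202) they join chr11:69686957-69686986 to chr11:69685101-69685130, and in *Tnfsf13* (Tnfsf13-201) they are continuous at chr11:69685101-69685160, inside the first exon; all lie on the minus strand.
Tnfsfm13: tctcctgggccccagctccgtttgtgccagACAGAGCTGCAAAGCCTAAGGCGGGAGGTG
Tnfsf13: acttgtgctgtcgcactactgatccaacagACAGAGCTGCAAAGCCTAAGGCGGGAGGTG

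*Tnfsf13b* has a coding exon of 57 bases (exon 4 of Tnfsf13b-203, chr8:10021373-10021429, plus strand) that the coding transcript Tnfsf13b-201 lacks. ΔBAFF, a splice form known to limit BAFF activity, is made by leaving out a short coding exon. Capitals mark the exon, with 15 coding bases on each side in lower case. The deposited values are per gene, so the 2 forms were not measured separately.
Tnfsf13b-203: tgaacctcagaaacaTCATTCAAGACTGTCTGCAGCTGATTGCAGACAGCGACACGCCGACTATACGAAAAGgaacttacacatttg
Tnfsf13b-201: tgaacctcagaaacagaacttacacatttg

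The reads assigned to genes numbered 46409700 and 33336071 for the control pools, in the order of their numbers, against 38052048 and 32520709 for AAV-mVEGF-C. AAV-CTRL 1 stood apart, with the most reads and the fewest genes with a read, 20993 against 29230 to 37535. *Ptprc*, which encodes CD45, was at 945 to 1150 counts per 1000000 reads after scaling of library sizes (CPM) in all 4 libraries. Markers of fibroblasts, which a CD45 gate should remove, were not at 0. All 9 of 9 were detected and had a log2 fold change under 0 (0 with an adjusted p under 0.05, 5 unadjusted), and their summed level was 810 and 1301 CPM in AAV-CTRL against 448 and 699 CPM in AAV-mVEGF-C. Their part in the values below was not tested. In bulk RNA, fewer cells of a type and less RNA per cell cannot be told apart.

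The receptor genes of B cells dominated the set. On the scale of transcripts per 1000000 (TPM), which corrects for gene length, the mean over 4 libraries was 22.9 for *Tnfrsf13b*, 10.5 for *Tnfrsf13c*, 8.30 for *Tnfsf13b*, 4.61 for *Tnfsf13*, and 0.980 for *Tnfrsf17*. *Tnfrsf13b* was above *Tnfrsf13c* in 4 of 4 libraries, although their ranges overlapped. *Tnfrsf13c* was above *Tnfsf13b* in 3 of 4 libraries, so these neighbors did not differ beyond their spread. The ranges of *Tnfsf13b*, *Tnfsf13*, and *Tnfrsf17* were separate from one another as deposited. The place of *Tnfsf13* rests on how its reads were divided from those of *Tnfsfm13*, since the TPM of both together was above that of *Tnfsf13b* in 3 of 4 libraries. Among the 32 tested genes with symbols that begin Tnfsf or Tnfrsf, *Tnfrsf13b* ranked 5 by mean TPM, *Tnfrsf13c* 8, *Tnfsf13b* 9, *Tnfsf13* 17, and *Tnfrsf17* 27.

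None of the 5 genes passed the test between AAV-mVEGF-C and AAV-CTRL. All 5 cleared the filter on low counts, and 0 had an adjusted p under 0.05 (quasi-likelihood test of edgeR, adjusted by Benjamini-Hochberg). The background was 0.0% of 19806 tested genes called. At an unadjusted p under 0.05, 0 of the 5 genes passed, beside a background of 2.64% (523 genes). DESeq2 called 0 of the 5 and 0.397% of the genes it tested (77 of 19382). Both AAV-mVEGF-C libraries lay above both AAV-CTRL libraries in CPM for 2 of the 5 genes, *Tnfsf13b* and *Tnfrsf17*, and below both for 0. The background was 16.8% of tested genes above and 15.2% below.

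**Figure D1:**
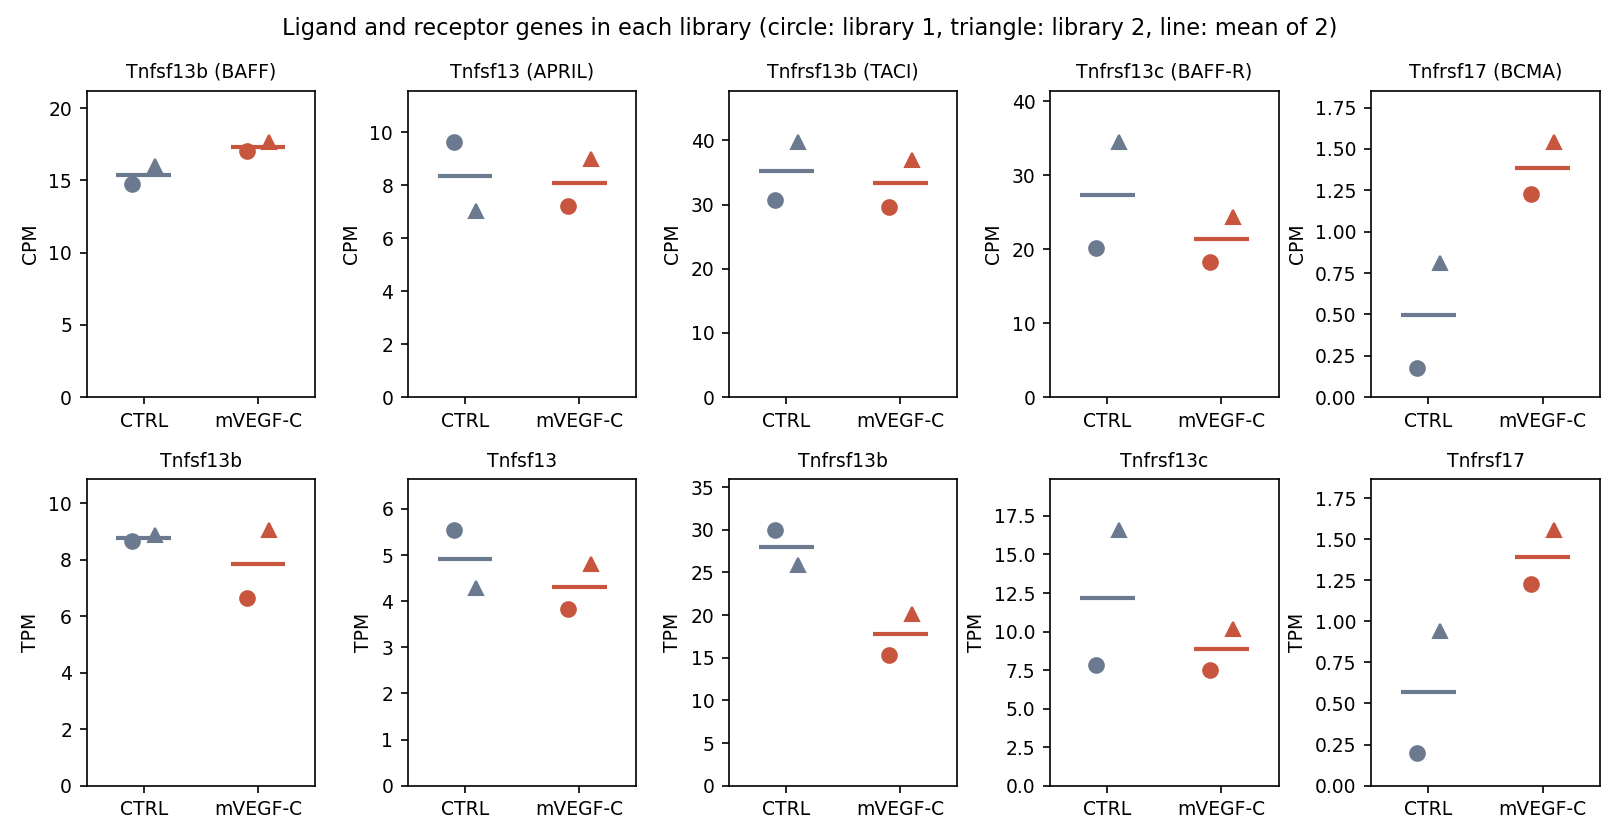
CPM (top row) and TPM (bottom row) of the 5 genes in each library, with linear axes from 0; the symbols are single libraries and the bars are the means of the 2 libraries of a group. *Tnfrsf17* was higher in both AAV-mVEGF-C libraries on both scales, whereas *Tnfsf13b* was higher in both only in CPM and *Tnfrsf13b* lower in both only in TPM.

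*Tnfrsf17*, the BCMA gene (ENSMUSG00000022496.5; GRCm38 chromosome 16, 11313812 to 11320074, plus strand), showed the widest difference of the set and rested on the fewest reads. It had 8 and 28 reads in the controls, AAV-CTRL 1 and 2, against 48 and 49 in AAV-mVEGF-C 1 and 2. These were 0.179 and 0.813 CPM in the control libraries against 1.23 and 1.54 CPM in the AAV-mVEGF-C libraries. The groups did not overlap, but the lower control, AAV-CTRL 1, was farther from the other control than that one was from AAV-mVEGF-C 1. The exact 95% counting interval of AAV-CTRL 2, 0.558 to 1.21 reads per 1000000 without scaling, also overlapped those of AAV-mVEGF-C 1, 0.930 to 1.67, and AAV-mVEGF-C 2, 1.12 to 1.99. Such intervals hold counting error alone, and they are too narrow if PCR copies of 1 molecule were counted as separate reads. Whether such copies were removed is not given in the sources used here.

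The mean of *Tnfrsf17* was 0.496 ± 0.449 CPM for AAV-CTRL against 1.39 ± 0.224 CPM for AAV-mVEGF-C (SD, n = 2 each). The log2 fold change was 1.49, or 2.80-fold (SE 0.963; unadjusted p = 0.173, adjusted p = 0.999, edgeR). The size of this difference depended on which control was kept. AAV-CTRL 1, the lower one, was also the library with the fewest genes with a read. With it as the only control, without AAV-CTRL 2, the log2 fold change was 2.94 in edgeR. That fit called 9.19% of all genes it tested (2058 of 22401), and its median log2 fold change over all genes was 0.13. Without AAV-CTRL 1 the log2 fold change of *Tnfrsf17* was 0.75 with an adjusted p of 0.999. In TPM the values were 0.198 and 0.943 in the control libraries against 1.23 and 1.56 in the AAV-mVEGF-C libraries, the same order of libraries. *Tnfrsf17* has 1 annotated transcript, and 0 of its exon bases were shared with another gene.

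Most markers of plasma cells, the cells that carry BCMA, were also at higher values after AAV-mVEGF-C. Of 12 plasma cell markers, 10 were higher and 2 lower, with a median log2 fold change of 0.59 beside 0.0034 over all tested genes, and 0 had an adjusted p under 0.05 (3 unadjusted). Without AAV-CTRL 1 the counts were again 10 and 2. The summed level was 602 and 695 CPM in the control libraries against 1108 and 1117 CPM in the AAV-mVEGF-C libraries. *Jchain*, the joining chain of polymeric antibody, made up the largest part of that sum, at 261 and 268 CPM in the control libraries against 671 and 679 CPM in the AAV-mVEGF-C libraries (log2 fold change 1.35; adjusted p = 0.331 from edgeR). *Prdm1*, which encodes the plasma cell regulator Blimp-1, was at 26.4 and 29.8 CPM against 49.3 and 38.2 CPM (0.64; adjusted p = 0.999). *Xbp1*, a regulator of secretion, had a log2 fold change of 0.19 (adjusted p = 0.999). No defining marker was at 0 in any library.

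Measured beside these markers, the outcome for *Tnfrsf17* depended on the form of the comparison. Its log2(CPM + 1) minus the mean of the plasma cell list was −4.00 and −3.72 in the control libraries against −3.88 and −3.63 in the AAV-mVEGF-C libraries. In this form the groups overlapped, with a difference of 0.10 beside an SD of 0.197 between the controls (exact two-sided permutation test, p = 0.667). A pseudocount of 1 compresses a gene at 0.179 to 1.54 CPM, and with log2(CPM + 0.1) the difference was 0.74 (exact permutation p = 0.667). With the median of the list in place of its mean, the groups were separate, at a difference of 0.35 (exact permutation p = 0.333), and in TPM it was 0.19. Same-numbered libraries differed by 0.11 and 0.09 in the main form, and libraries with crossed numbers by 0.37 and −0.16. The difference turned to −0.039 without AAV-CTRL 1 and to −0.025 without AAV-mVEGF-C 2. In all, 11 such within-library quantities were compared, every adjusted p was 1.0 by Benjamini-Hochberg, and 0.333 is the smallest exact p that 2 pools against 2 allow.

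*Tnfrsf13c*, the BAFF-R gene (ENSMUSG00000068105.11; chromosome 15, 82221743 to 82224369, minus strand), was highest in AAV-CTRL 2, as the B cell markers were. It had 905 and 1190 reads in the control libraries against 717 and 774 in the AAV-mVEGF-C libraries, or 20.2 and 34.6 CPM against 18.3 and 24.4 CPM. AAV-CTRL 2 was high and the other 3 libraries ran from 18.3 to 24.4 CPM, so the groups overlapped. The mean was 27.4 ± 10.1 CPM for AAV-CTRL against 21.4 ± 4.28 CPM for AAV-mVEGF-C (SD, n = 2 each), a log2 fold change of −0.36 ± 0.304 (SE; adjusted p = 0.999, edgeR). It was −0.71 without AAV-CTRL 1 and 0.089 without AAV-CTRL 2.

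Of the 15 B cell markers tested, 14 were lower and 1 higher, with a median log2 fold change of −0.45, and 0 had an adjusted p under 0.05 (2 unadjusted). This rested on AAV-CTRL 2, without which 13 were higher and 2 lower, with a median of 0.16 (0.13 over all tested genes). Their summed level was likewise highest in AAV-CTRL 2, at 1218 CPM, against 572 CPM in AAV-CTRL 1 and 612 and 676 CPM in AAV-mVEGF-C. *Cd79a*, a chain of the B cell receptor, was at 68.5 and 176 CPM in the control libraries against 66.0 and 78.3 CPM in the AAV-mVEGF-C libraries. *Ms4a1*, which encodes CD20, was at 52.7 and 107 CPM against 46.9 and 43.8 CPM (log2 fold change −0.82; unadjusted p = 0.0470, adjusted p = 0.999 from edgeR). *Ebf1*, a B lineage transcription factor, had a log2 fold change of −0.91 (adjusted p = 0.999), and *Cd37*, a leukocyte tetraspanin, −0.073. Relative to the mean of the list, log2(CPM + 1) of *Tnfrsf13c* was −0.52 and −0.87 in the control libraries against −0.83 and −0.56 in the AAV-mVEGF-C libraries, a difference of 0.0035 (exact permutation test, p = 1.0).

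*Tnfrsf13b*, the TACI gene (ENSMUSG00000010142.12; chromosome 11, 61126755 to 61149372, plus strand), gave different pictures in the 2 deposited units. It had 1378 and 1371 reads in the control libraries against 1161 and 1175 in the AAV-mVEGF-C libraries, or 30.8 and 39.8 CPM against 29.7 and 37.0 CPM. The groups overlapped, at 35.3 ± 6.39 CPM (SD, n = 2) and 33.4 ± 5.19 CPM, and the log2 fold change was −0.08 ± 0.213 (SE; adjusted p = 0.999, edgeR). It turned to 0.12 without AAV-CTRL 2 and to 0.079 without AAV-mVEGF-C 1. Without AAV-CTRL 1 it was −0.27, and without AAV-mVEGF-C 2 it was −0.24. In TPM, by contrast, both controls, at 29.96 and 25.9, were above both AAV-mVEGF-C libraries, at 15.3 and 20.2. The share of all tested genes separate in this direction was found in CPM only, where it was 15.2%. On log2(TPM + 1) the change was −0.64 (unadjusted p = 0.0261, adjusted p = 0.837 from limma). In that fit 902 of 19806 genes had an unadjusted p under 0.05, and 0 an adjusted p under 0.05.

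The transcript length implied by the 2 units accompanied this gap. Reads divided by TPM, scaled on 438 genes with a single annotated transcript, gave *Tnfrsf13b* an implied length of 760 bases in AAV-CTRL 1 and of 1244, 1364, and 1292 bases in the other libraries. The highest was 1.79 times the lowest, and 5.47% of 11767 genes with at least 100 reads in every library varied more. *Tnfrsf13b* has 7 annotated transcripts, from 364 to 2556 bases long. A given number of reads thus counted as more TPM in AAV-CTRL 1 than elsewhere. Which transcripts the reads came from was not tested. AAV-CTRL 2, whose implied length was near those of AAV-mVEGF-C, was still above both of them in TPM, and in CPM as well. Relative to the B cell list, log2(CPM + 1) of *Tnfrsf13b* was 0.06 and −0.68 in the control libraries against −0.16 and 0.02 in the AAV-mVEGF-C libraries (difference 0.24; exact permutation test, p = 1.0), and the difference was −0.13 without AAV-CTRL 2.

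Taking the receptors as a composition, the share of the BCMA gene was small, and it was higher in both AAV-mVEGF-C libraries. *Tnfrsf17* made up 0.521 and 2.17% of summed receptor TPM in the control libraries against 5.10 and 4.87% in the AAV-mVEGF-C libraries. The groups were separate, with a difference of 3.64 percentage points. Its p of 0.333 by two-sided exact permutation is the smallest that 2 pools against 2 allow. The share rested on 8 to 49 reads of *Tnfrsf17*. *Tnfrsf13b* held 78.9 and 59.7% in the control libraries against 63.7 and 63.2% in the AAV-mVEGF-C libraries, and *Tnfrsf13c* held 20.6 and 38.2% against 31.3 and 31.9%. In TPM the controls lay on either side of AAV-mVEGF-C for both of these genes. With reads in place of TPM, the difference in the share of *Tnfrsf17* was 1.76 percentage points (exact permutation p = 0.333). The other receptors turned direction on that scale. *Tnfrsf13c* held 39.5 and 45.96% of receptor reads in the control libraries against 37.2 and 38.7% in the AAV-mVEGF-C libraries, separate groups that differed by −4.75 points (exact permutation p = 0.333), and the difference of *Tnfrsf13b* was 2.99 points (exact p = 0.667). The summed receptor level was 38.0 and 43.5 TPM in the control libraries against 24.1 and 31.9 TPM in the AAV-mVEGF-C libraries, but in CPM the sums were 51.2 and 75.2 against 49.2 and 63.0, and the groups overlapped.

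**Figure D2:**
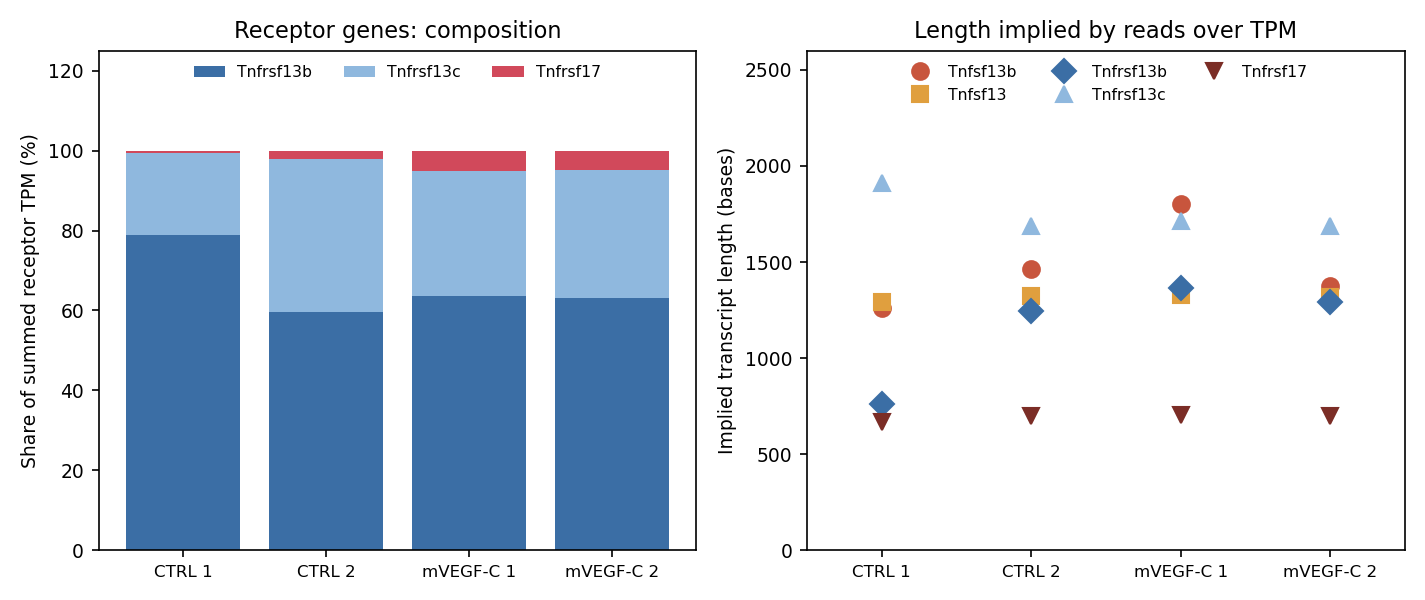
Left, the share of each receptor gene in summed receptor TPM (percent) in the 4 libraries. Right, the transcript length implied by reads over TPM (bases) for the 5 genes. The *Tnfrsf17* segment was widest in both AAV-mVEGF-C libraries, and *Tnfrsf13b* fell to 760 bases in AAV-CTRL 1 alone.

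*Tnfsf13b*, the BAFF gene (ENSMUSG00000031497.9; chromosome 8, 10006467 to 10039072, plus strand), varied little. It had 661 and 551 reads in the control libraries against 665 and 561 in the AAV-mVEGF-C libraries. In CPM it was at 14.8 and 16.0 in the control libraries against 17.0 and 17.7 in the AAV-mVEGF-C libraries. Both AAV-mVEGF-C libraries were higher by a small margin, 15.4 ± 0.873 against 17.3 ± 0.478 CPM (SD, n = 2). The log2 fold change was 0.17 ± 0.199 (SE; adjusted p = 0.999, edgeR). In TPM it was 8.65 and 8.86 in the control libraries against 6.63 and 9.04 in the AAV-mVEGF-C libraries, and the log2 fold change turned to −0.16 on log2(TPM + 1) (adjusted p = 0.921 from limma). The implied length ran from 1263 to 1804 bases, and 15.1% of genes varied more.

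*Tnfsf13*, the APRIL gene (ENSMUSG00000089669.7; chromosome 11, 69682846 to 69685784, minus strand), did not separate the groups. Its estimated reads were 432 and 242 in the control libraries against 282 and 285 in the AAV-mVEGF-C libraries. In CPM it was at 9.65 and 7.02 against 7.22 and 8.98, with means of 8.34 ± 1.86 and 8.10 ± 1.25 (SD, n = 2). The log2 fold change was −0.04 ± 0.303 (SE; adjusted p = 0.999, edgeR), and it was 0.19 without AAV-CTRL 1 and 0.11 without AAV-mVEGF-C 1. The ratio of BAFF to APRIL TPM was 1.56 and 2.06 in the control libraries against 1.73 and 1.89 in the AAV-mVEGF-C libraries, so the ratio overlapped between groups (exact permutation test of log2 ratios, p = 1.0). BAFF exceeded APRIL in every library only with the reads divided as deposited. Against *Tnfsf13* and *Tnfsfm13* together, the ratio was 0.671 and 0.890 in the control libraries against 0.794 and 1.01 in the AAV-mVEGF-C libraries, below 1 in 3 of 4 libraries.

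The value of *Tnfsf13* is uncertain because of the read-through gene. Of its 1637 exon bases, 983 (60.0%) are also exons of *Tnfsfm13*, including the capitals shown above, and 221 (13.5%) face exons of the antisense gene *Tnfsf13os*, which had 1 to 40 reads. Whether counting used strand is not given in the sources used here, so in this shared stretch reads of *Tnfsf13* and the antisense gene cannot be told apart. *Tnfsfm13* had more estimated reads than *Tnfsf13* in every library, 688 and 458 in the control libraries against 461 and 358 in the AAV-mVEGF-C libraries. It was lower in both AAV-mVEGF-C libraries (log2 fold change −0.31, SE 0.223; adjusted p = 0.999 from edgeR). Together, *Tnfsf13* and *Tnfsfm13* were at 25.02 and 20.3 CPM in the control libraries against 19.0 and 20.3 CPM in the AAV-mVEGF-C libraries. These sums were 22.7 ± 3.33 and 19.6 ± 0.895 CPM (SD, n = 2; exact permutation test, p = 0.333), and fitted as 1 gene they gave a log2 fold change of −0.21.

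*Tnfsf12*, the TWEAK gene at the 5′ side of the same locus, varied most of the 3 genes between the controls. Its estimated reads were 167 and 520 in the control libraries against 305 and 409 in the AAV-mVEGF-C libraries, which was 13.0 and 42.6% of the reads of the 3 genes in AAV-CTRL against 29.1 and 38.8%. *Tnfsf13* held 33.6 and 19.8% in the control libraries against 26.9 and 27.1% in the AAV-mVEGF-C libraries. The reads of all 3 genes together came to 28.8 and 35.4 CPM in the control libraries against 26.8 and 33.2 CPM in the AAV-mVEGF-C libraries, so the locus as a whole overlapped between the groups (exact permutation test, p = 0.667).

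**Figure D3:**
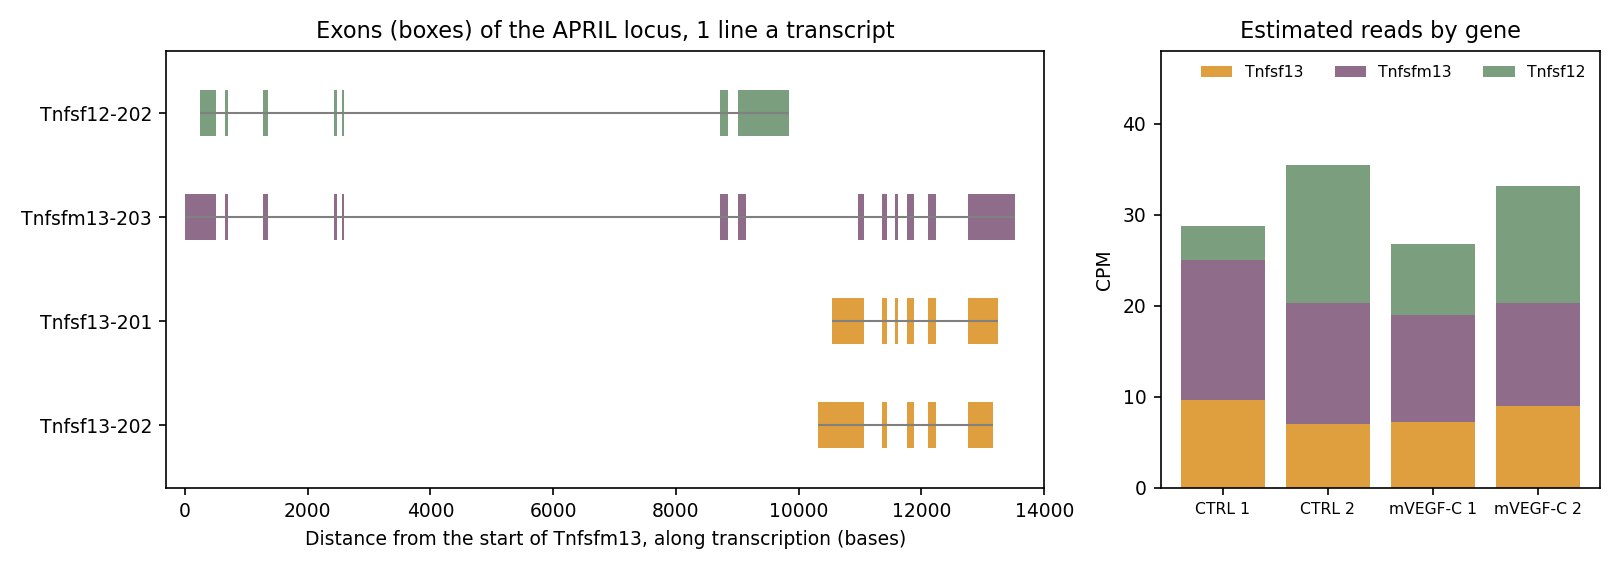
Left, exons of selected transcripts of *Tnfsf12*, *Tnfsfm13*, and *Tnfsf13*, by distance in bases from the start of *Tnfsfm13*. Right, CPM of the 3 genes stacked in each library. The 3′ exons of *Tnfsfm13* coincide with those of *Tnfsf13*, and the *Tnfsf12* part was smallest in AAV-CTRL 1.

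Beside the markers of monocytes and macrophages and of neutrophils, the values of both ligands overlapped between the groups. Beside those of fibroblasts they did not. Relative to the monocyte and macrophage list (log2(CPM + 1) minus the list mean), *Tnfsf13b* was at −3.61 and −3.81 in the control libraries against −3.22 and −3.63 in the AAV-mVEGF-C libraries, a difference of 0.28 (exact permutation test, p = 0.667). *Tnfsf13* was at −4.17 and −4.89 against −4.36 and −4.53, a difference of 0.09 (p = 1.0, exact). Of the 14 markers of that list, 4 were higher and 10 lower (9 and 5 without AAV-CTRL 2, 10 and 4 without AAV-mVEGF-C 1, 3 and 11 without AAV-CTRL 1, 0 and 14 without AAV-mVEGF-C 2), and the summed level was 6339 and 6683 CPM in the control libraries against 5446 and 7066 CPM in the AAV-mVEGF-C libraries. *Lyz2*, lysozyme, was the most abundant (log2 fold change 0.03), and *Csf1r*, the M-CSF receptor, had −0.22. *Mrc1* (CD206) had −0.29 and *Fcgr1* (CD64) −0.25.

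Relative to the neutrophil list, the differences were 0.05 for *Tnfsf13b* (exact permutation test, p = 1.0) and −0.14 for *Tnfsf13* (p = 1.0, exact). The neutrophil markers, 8 higher and 5 lower of 13, varied more between the controls, at 29710 and 13290 CPM summed, than between the groups, at 17650 and 19370 CPM in AAV-mVEGF-C. Their counts were 13 higher and 0 lower without AAV-CTRL 1, and 2 and 11 without AAV-CTRL 2. The difference of *Tnfsf13b* was −0.52 without AAV-CTRL 1 and 0.62 without AAV-CTRL 2.

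Relative to the fibroblast list, a comparison added after the data had been seen and outside the 11 quantities above, *Tnfsf13b* was at −1.71 and −2.25 in the control libraries against −0.78 and −1.32 in the AAV-mVEGF-C libraries. *Tnfsf13* was at −2.27 and −3.33 against −1.91 and −2.22. Both were separate between the groups, with differences of 0.93 and 0.74 (exact permutation p = 0.333 for each). The fibroblast markers themselves were lower in AAV-mVEGF-C, as given above. The differences include those lower values, so they do not describe the ligands alone.

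**Figure D4:**
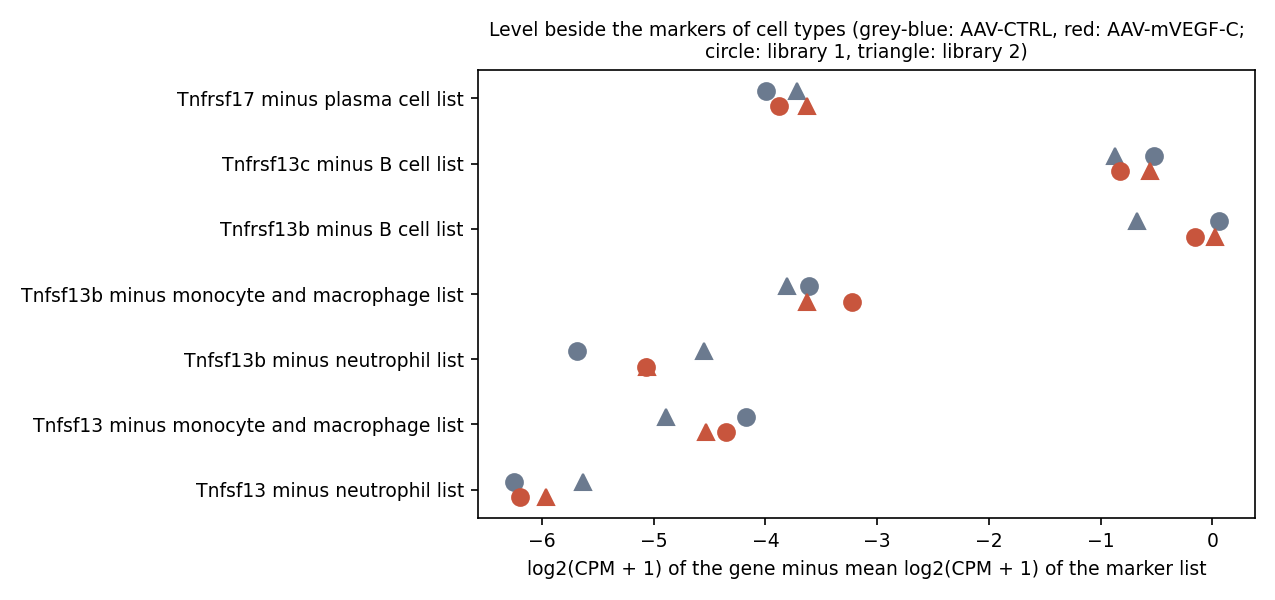
Log2(CPM + 1) of a ligand or receptor gene minus the mean of a marker list, 1 symbol per library; values below 0 are under the list mean. In this form the groups overlap in all 7 rows, with *Tnfrsf17* between −4.00 and −3.63 and *Tnfrsf13c* between −0.87 and −0.52.

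Other genes of the pathway and of neighboring signals were more often higher than lower, without passing the test. Over 5 lists, 55 genes were tested, 41 higher and 14 lower after AAV-mVEGF-C; 0 had an adjusted p under 0.05 in edgeR and 2 an unadjusted p under 0.05. Of all tested genes, 50.4% were higher, and of the 55 genes 74.5%. The lists were chosen with earlier results of these data known, and their genes were read from the same pools. The shares therefore only describe these lists. The 3 lists of the pathway itself held 22 higher of 33 (66.7%), and the 2 lists of neighboring TNF genes and niche factors 19 of 22 (86.4%). Without AAV-CTRL 2 the shares of all tested genes and of the 55 were 57.9% and 74.5%, and without AAV-mVEGF-C 2 they were 53.4% and 67.3%. Dendritic cell markers and T and NK cell markers leaned as far, with 77.8% of each list higher (7 of 9). Of 14 receptor adaptor and NF-κB genes, 11 were higher and 3 lower, with a median log2 fold change of 0.18. This list mixes genes that drive the pathway with genes that restrain it, so the count gives no direction of activity. Both AAV-mVEGF-C libraries lay above both controls in 8 of these and below in 0, beside the 16.8% of all tested genes given above. *Birc3*, an E3 ligase of the TRAF complex, was at 210 and 198 CPM in the control libraries against 236 and 241 CPM in the AAV-mVEGF-C libraries (0.23; adjusted p = 0.999). *Traf1* was at 101 and 94.8 CPM against 135 and 118 CPM (0.37), and *Traf3*, the adaptor that holds NIK in check, at 68.4 and 78.7 CPM against 94.5 and 86.8 CPM (0.30). *Ikbkb* had a log2 fold change of 0.16.

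Of 11 genes of survival outputs, 7 were higher and 4 lower, with a median of 0.08, which ran from 0.02 without AAV-mVEGF-C 2 to 0.21 without AAV-CTRL 1. *Mcl1*, the survival protein that BCMA signals maintain in plasma cells, was at 661 and 673 CPM in the control libraries against 673 and 741 CPM in the AAV-mVEGF-C libraries (log2 fold change 0.08). *Bcl2l11*, which encodes the opposing death factor BIM, had 0.34 and *Bcl2a1d* 0.37 (unadjusted p = 0.0732 and 0.0792, adjusted p = 0.999 for both in edgeR). Reads of the *Bcl2a1* genes may be divided among near-identical copies.

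Of 8 genes for ligand release and for the heparan sulfate co-receptors of APRIL, 4 were higher and 4 lower, with a median of 0.03 (−0.017 without AAV-mVEGF-C 2, 0.14 without AAV-mVEGF-C 1). *Furin*, the protease that cleaves both ligands from their precursors, was at 219 and 194 CPM in the control libraries against 254 and 254 CPM in the AAV-mVEGF-C libraries (0.30; adjusted p = 0.999). *Adam10*, which sheds TACI, was lower in both, at 140 and 121 against 109 and 108 CPM (−0.27). *Sdc1*, syndecan-1, a plasma cell surface proteoglycan that binds APRIL and that is also in the plasma cell list, was at 19.2 and 23.0 CPM against 29.7 and 31.3 CPM (0.53; unadjusted p = 0.0292, adjusted p = 0.999 from edgeR).

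Of 9 tested genes of neighboring TNF ligands and receptors of B cell help, 8 were higher and 1 lower, with a median of 0.34. The median was 0.20 without AAV-CTRL 1 and 0.22 without AAV-mVEGF-C 2, with 6 higher and 3 lower in the latter. *Cd40*, the receptor for T cell help, was at 16.8 and 24.1 CPM in the control libraries against 27.0 and 29.2 CPM in the AAV-mVEGF-C libraries (0.46), and *Tnfsf9*, 4-1BB ligand, had 0.48 (adjusted p = 0.999 for both in edgeR). Of 13 genes of other plasma cell niche factors, 11 were higher and 2 lower, with a median of 0.16. The median was 0.05 without AAV-mVEGF-C 2, 0.06 without AAV-CTRL 2, and 0.08 without AAV-CTRL 1, and the counts were 8 and 5 without AAV-mVEGF-C 1. *Cd80*, a ligand of CD28, was at 14.7 and 13.3 CPM in the control libraries against 24.9 and 24.3 CPM in the AAV-mVEGF-C libraries (0.81; unadjusted p = 0.00499, adjusted p = 0.999 from edgeR). *Il6* was at 6.54 and 8.39 CPM against 10.1 and 11.1 CPM (0.50). *Cxcr4* had 0.23 and *Il6st* 0.01.

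**Figure D5:**
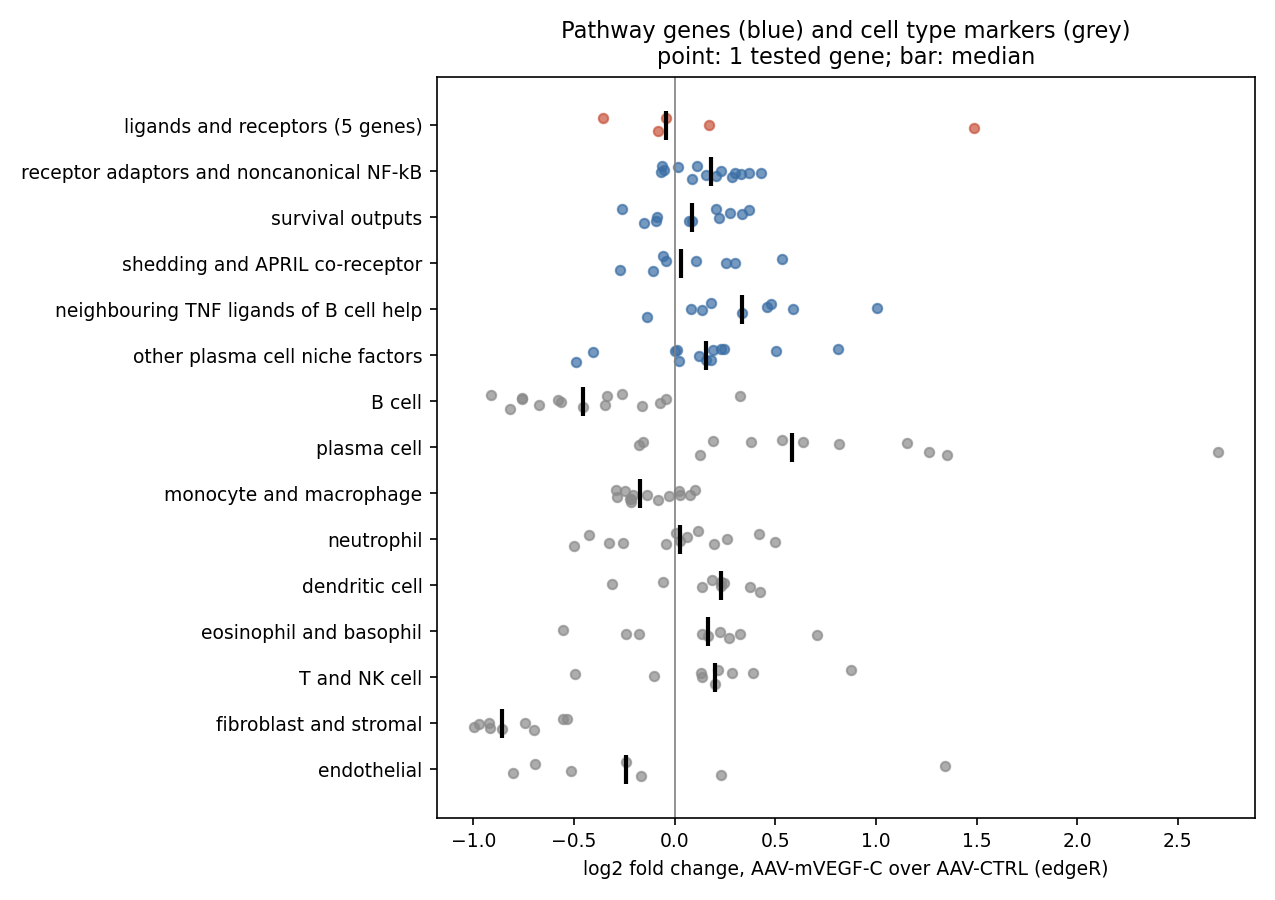
Log2 fold change of each tested gene (points) and the median (bars) for the 5 ligand and receptor genes, 5 lists of pathway and neighboring genes, and 9 marker lists. *Tnfrsf17* is the red point at 1.49, the plasma cell markers have a median of 0.59, and the B cell markers one of −0.45.

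Of the 32 tested genes with TNF family symbols, 19 were higher and 13 lower, 0 with an adjusted p under 0.05 and 1 unadjusted. Without the antisense gene *Tnfsf13os*, which encodes no ligand, 18 of 31 were higher. The smallest p values from edgeR belonged to *Tnfsf8* (CD30 ligand), *Tnfrsf23*, and *Tnfsf11* (RANKL), with log2 fold changes of 0.86, 0.85, and 0.41 and an adjusted p of 0.999 for each. *Tnfrsf17* ranked 10 by p in this family.

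The genes with the profile most like each of the 5 were sought by the root mean square distance of centered log2(CPM + 1) over the 4 libraries, among 11290 genes with a mean of at least 5 CPM (11291 for *Tnfrsf17*, which is itself under that level). For *Tnfrsf17* the nearest were *Ier5l* at 0.032, *Kdm6b* at 0.056, and *Ccr8* at 0.078. The pseudocount of 1 compresses its profile and hardly those of the genes compared, so its distances rest on the pseudocount; another one was not tried. *Tnfrsf13c* had 6 genes within 0.05, and its nearest were *Hdac9* at 0.0072, *Laptm4b* at 0.029, and *Siglec1* at 0.030. *Tnfrsf13b* was nearest to *Marcks*, *Cav2*, and *Cbx6*, with 78 genes within 0.05. *Tnfsf13b* was nearest to *Ube2q2*, *Arhgap22*, and *Capn15*, with 244 within 0.05, and *Tnfsf13* to *H2-DMb1*, *Tgfbi*, and *Myd88*, with 90. With 4 libraries, such likeness only describes these profiles.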

How the data were processed

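Bulk RNA of sorted dural CD45+ cells was sequenced from 4 pools with a stranded total RNA kit for picogram inputs. The authors deposited estimated counts of reads per gene, not normalized, of which 8.18% were not whole; these were rounded here. TPM values, scaled for gene length by the authors, were deposited beside them. Their processing notes name FastQC, Trimmomatic, DRAGEN, Picard, and the mm10 build; the program behind the estimates is not given in the sources used here. Groups came from the labels, which number the libraries by experiment.

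Counts were tested with edgeR 4.0.16 in R 4.3.3 (TMM, filterByExpr, glmQLFit, Benjamini-Hochberg over 19806 genes, threshold 0.05), and checked on simulated data. The common dispersion was 0.173. The SE of a log2 fold change was derived from that change and the F statistic of the same test. It is therefore no measure of precision separate from the p-value. Single values were compared with exact two-sided permutation tests. The labels number the pools of each group as experiments 1 and 2, and p-values measure the spread between these pools. Alternatives were DESeq2 1.42.0, limma 3.58.1 (voom, and TPM with pseudocounts of 1 and 0.1), other scalings and filters, a replicate block, and each library left out. A crossed block, the ligands beside fibroblast markers, list counts without each library, and the sum of *Tnfsf13* and *Tnfsfm13* were added after seeing the data.

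Members and lists were chosen with earlier results of these data known. Named genes were all 5 members, in each list the 2 genes with the largest mean CPM and the 2 with the smallest unadjusted p (text examples are taken from these), the 3 of smallest p in the TNF family, and the 3 nearest profiles. *Tnfsfm13* and *Tnfsf12* fall outside the rule and were named because they share exons at the *Tnfsf13* locus. Results of further marker lists, as genes higher and lower: dendritic cell 7 and 2, eosinophil and basophil 6 and 3, T and NK cell 7 and 2, endothelial 2 and 5. Without AAV-CTRL 2 these counts were 9 and 0, 3 and 6, 6 and 3, and 4 and 3, in the same order. Positions and sequences are from GENCODE M21, which holds 54349 of the 55401 identifiers under an equal version number.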

Additional observations from a re-analysis of the deposited data

How the results depend on the processing

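None of the 5 genes had an adjusted p under 0.05 in any of the 11 alternatives that kept all libraries (10 for *Tnfrsf17*). Over these, the log2 fold change ran from −0.21 to −0.03 for *Tnfsf13*, −0.66 to −0.06 for *Tnfrsf13b*, −0.38 to −0.31 for *Tnfrsf13c*, and 0.64 to 1.95 for *Tnfrsf17*, which was filtered out with at least 10 reads in every library. *Tnfsf13b* turned to −0.16 and −0.17 on log2(TPM + 1) and log2(TPM + 0.1). The replicate block by experiment number left *Tnfrsf17* at 1.81 and changed no call of the 5 genes, but moved the count of genes called from 0 to 11. Deviations of same-numbered libraries correlated at −0.134, and the column names give AAV-CTRL 1 and AAV-mVEGF-C 2 a shared number, as in the crossed replicate block, which was chosen after seeing the data and gave 54 genes called. Which pools belong together is not settled. DESeq2 gave 77 and no filter gave 268. The cause was not tested.

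Leaving out 1 library leaves a lone sample assumed to vary like the other group. The number of genes called then ran from 2 to 2058, the latter without AAV-CTRL 2, and of the 5 genes from 0 to 1, *Tnfrsf17* in the same fit. The ranges were 0.10 to 0.24 for *Tnfsf13b*, −0.24 to 0.19 for *Tnfsf13*, −0.27 to 0.12 for *Tnfrsf13b*, −0.71 to 0.089 for *Tnfrsf13c*, and 0.75 to 2.94 for *Tnfrsf17*. The BAFF to APRIL log2 ratio ran from −0.19 to 0.21. Receptor shares ran from −15.4 to 3.77 percentage points for *Tnfrsf13b*, −6.58 to 10.98 for *Tnfrsf13c*, and 2.81 to 4.46 for *Tnfrsf17*. With reads in place of TPM, *Tnfrsf13b* and *Tnfrsf13c* came to 2.99 and −4.75 points.

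Beside marker lists, differences without 1 library ran from −0.039 to 0.24 for *Tnfrsf17* (plasma cell), −0.17 to 0.18 for *Tnfrsf13c* and −0.13 to 0.61 for *Tnfrsf13b* (B cell), −0.52 to 0.62 for *Tnfsf13b* and −0.45 to 0.17 for *Tnfsf13* (neutrophil), and 0.076 to 0.48 for *Tnfsf13b* and −0.27 to 0.44 for *Tnfsf13* (monocyte and macrophage). *Tnfrsf17* became 0.74 with log2(CPM + 0.1) and 0.35, with separate groups, with the list's median. *Tnfrsf13c* became −0.0080 with log2(CPM + 0.1), *Tnfrsf13b* −0.13 in TPM, and *Tnfsf13b* beside neutrophil markers −0.015 with the list's median and −0.11 in TPM. The list median of adaptor and NF-κB genes was 0.16 with no filter and 0.13 to 0.24 without 1 library, that of shedding genes −0.017 to 0.14, of survival outputs 0.02 to 0.21, of neighboring TNF genes 0.20 to 0.50, and of niche factors 0.05 to 0.16. *Tnfrsf17* rested on 8 to 49 reads, and the exact counting intervals of its controls, 0.0744 to 0.340 and 0.558 to 1.21 reads per 1000000, did not overlap.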
